A study of Mus musculus with 8 samples.

Results

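The genes described here are 50 chromatin regulators with roles in brain development, taken by symbol from the 34299 genes of the deposited count table, and all 50 symbols were found. They were sorted into 9 classes by the reaction each protein carries out. The RNA came from whole mouse brain in 3 groups: wild type (WT) at gestation day 15 (3 libraries), Cav1 knockout (KO) at gestation day 15 (3 libraries) and Cav1 KO at week 70 of age (2 libraries). The KO animals lack caveolin 1, the coat protein of the membrane pits called caveolae. The labels state no strain, sex, litter, knockout allele or pooling of animals. They speak of biological replicates for the fetal brains only, so p-values measure the spread between these libraries. The older WT data that the authors set against the week 70 brains belong to another study and were not analysed here, so genotype was compared at day 15 and age within KO. The study asked how caveolin 1 shapes the metabolism of the fetal brain.

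Chromatin regulators write, erase or read chemical marks on histones and DNA, or move nucleosomes along DNA. In the developing cortex they keep progenitors dividing, hold genes of later stages silent and open them as neurons form. Several work as families of exchangeable subunits: Ezh2 is the methyltransferase of Polycomb repressive complex 2 (PRC2) in dividing cells and Ezh1 its counterpart in resting cells, and the BAF remodelling complex swaps subunits as progenitors become neurons. Loss of 1 copy of many of these genes causes human neurodevelopmental disorders, as for ARID1B, CHD8 and SETD5.

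The starts of 4 members on which the results turn are shown to let a reader see the promoters of the gene that fell most with age (Ezh2), its paralog that rose (Ezh1), and of the 2 members with the largest falls in KO (Zmiz1, Smarca4). Each is the 250 bases before the transcript start, 5′ to 3′ on the gene's strand, from RefSeq on build GRCm38.p6, with CpG dinucleotides in capitals.
Ezh2, chr6:47595031-47595280, minus strand: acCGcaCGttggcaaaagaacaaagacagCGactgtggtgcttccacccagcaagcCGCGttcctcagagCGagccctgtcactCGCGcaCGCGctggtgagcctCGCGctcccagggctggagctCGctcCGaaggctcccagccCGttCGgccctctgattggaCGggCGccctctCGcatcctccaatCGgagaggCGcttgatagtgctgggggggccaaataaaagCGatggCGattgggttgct
Ezh1, chr11:101226464-101226713, minus strand: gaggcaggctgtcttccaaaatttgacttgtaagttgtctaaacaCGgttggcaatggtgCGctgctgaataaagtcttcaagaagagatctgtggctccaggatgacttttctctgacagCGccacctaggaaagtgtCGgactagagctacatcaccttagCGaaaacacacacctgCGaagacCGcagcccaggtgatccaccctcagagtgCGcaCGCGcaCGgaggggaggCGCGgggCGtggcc
Smarca4, chr9:21615919-21616168, plus strand: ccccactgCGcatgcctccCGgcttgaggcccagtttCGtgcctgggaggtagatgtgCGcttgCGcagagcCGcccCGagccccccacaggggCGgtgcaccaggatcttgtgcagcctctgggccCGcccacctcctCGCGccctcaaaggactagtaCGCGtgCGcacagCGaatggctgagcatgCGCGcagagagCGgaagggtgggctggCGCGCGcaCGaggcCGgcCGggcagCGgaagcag
Zmiz1, chr14:25458935-25459184, plus strand: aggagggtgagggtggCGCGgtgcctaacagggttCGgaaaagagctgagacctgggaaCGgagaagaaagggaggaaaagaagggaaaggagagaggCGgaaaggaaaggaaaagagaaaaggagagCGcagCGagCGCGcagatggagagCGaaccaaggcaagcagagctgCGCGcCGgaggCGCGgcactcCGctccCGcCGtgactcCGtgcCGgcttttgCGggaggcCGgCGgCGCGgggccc
These windows held 23 CpG in Ezh2, 14 in Ezh1, 25 in Smarca4 and 25 in Zmiz1. The motif GGGCGG, searched on both strands, was found 3 times in Smarca4 and not in the other windows, and the motif CCAAT, also on both strands, 3 times in Ezh2 and not in the others. RefSeq windows were at hand for 36 members with 45 starts. Of these starts, 36 (80%) had over 50% GC and a CpG ratio (observed to expected) over 0.6, the usual mark of a CpG island, against 30.8% of 32851 windows of all genes. GGGCGG was in 73.3% of the members' windows and in 32.7% of all windows, while CCAAT was in 20% and 33.8%. The median window held 25 CpG and 68.4% GC in the members, and 6 CpG and 52.4% GC over all genes. The 27025 genes behind all windows were not limited to coding genes expressed in these brains, as the members are. Whether these gaps are particular to chromatin regulators was therefore not tested.

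Total counts were 19414747 to 20833397 in WT, 14110031 to 15245283 in KO day 15 and 18924304 to 20203233 at week 70. Every WT library was deeper than every KO day 15 library and the labels give no batch, so that depth, any batch and genotype cannot be told apart. Cav1 itself had 218 to 367 counts in the WT libraries and 0 to 5 in the 5 KO libraries, so no library went against its label. The brain markers Tubb3, Stmn2, Map2, Dcx, Nes and Sox2 summed to 5435 to 6013 CPM (counts relative to the library's size, scaled by TMM over all 8 libraries) in WT, 4298 to 4367 in KO day 15 and 2329 to 2483 at week 70. Marker genes of other cells also differed. Progenitor markers summed to 1438 to 1488 CPM in WT, 1190 to 1297 in KO day 15 and 1125 to 1198 at week 70, but single genes weighed heavily in these sums. In KO day 15, 7 of the 8 were called lower and only Fabp7 higher, at a mean of 786 CPM against 282 in WT. With the length and GC correction described below, 5 were called lower, and Pax6 and Hes5 were not called. Fabp7 was still called higher, at a log2 fold change of 0.49 in place of 1.52. At week 70 Slc1a3 had a mean of 914 CPM, against 71.6 in KO day 15, while 5 of the 8 fell and 2 rose. Immature neuron markers, at 5324 to 5750 and 5535 to 5607 CPM, overlapped between the fetal genotypes and stood at 1278 to 1299 at week 70. Astrocyte markers summed to 311 to 345, 134 to 149 and 5816 to 6221 CPM, and microglial markers to 36.5 to 64.2, 22 to 24.8 and 339 to 419 CPM. Proliferation markers summed to 524 to 655 CPM in WT, 377 to 392 in KO day 15 and 3.79 to 6.2 at week 70, where Aurkb and Bub1 were at 0 in replicate 2. Endothelial markers summed to 171 to 235, 50.8 to 65.9 and 292 to 319 CPM, and erythroid markers to 954 to 1235, 3569 to 4380 and 490 to 778 CPM. Fibroblast and meningeal markers ranged from 306 to 4443 CPM in WT and from 67.8 to 141 in KO day 15. WT replicate 1 stood apart with the highest of these sums, and without it 41 members were called for genotype. Mature neuron markers summed to 792 to 961 CPM in WT, 603 to 642 in KO day 15 and 13528 to 14795 at week 70. Of these 8 genes 5 were called lower and 1 higher in KO day 15, and 3 and 0 with the length and GC correction. Oligodendrocyte markers summed to 81.4 to 94.1, 77.8 to 83 and 13303 to 13425 CPM. Week 70 replicate 2 alone held RNA of the Y-linked gene Uty, at 252 counts against 0 in replicate 1. The part of these differences in the results below was not tested, but each fit was repeated without each library in turn, which called 39 to 42 of the 50 members for genotype, where all libraries gave 41, and 42 to 45 for age in place of 43. In bulk RNA, fewer cells of a type and less RNA per cell cannot be told apart.

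Together the 50 members took 1.23% ± 0.0153 of all counts in WT (SD, n = 3), 0.741% ± 0.00289 in KO day 15 (n = 3) and 0.425% and 0.458% in the week 70 libraries. The 3 groups did not overlap in this share, and each KO group was below the fetal WT, from which week 70 differs in age as well. These are shares of raw counts, without TMM scaling. The TMM factors were 1.02 to 1.03 in WT, 1.17 to 1.18 in KO day 15 and 0.751 and 0.767 at week 70. On the CPM scale the fall with age is therefore smaller than in these shares. Levels of different genes are compared per kilobase of the longest coding transcript. In WT the highest were Chd3 and Smarcc2 at 137 ± 4.34 and 134 ± 3.24 CPM per kilobase, which did not differ beyond their spread, followed by Smarca4 at 97.7 ± 3.46. In KO day 15 Hdac2 was highest, at 111 ± 3.1 CPM per kilobase, ahead of Smarcc2 at 69.5 ± 3.78 and Chd3 at 63.9 ± 4.6. At week 70 Chd3 (112 ± 4.65) and Smarcc2 (102 ± 0.224) again led, with Hdac5 next at 65.7 ± 6.36 CPM per kilobase (SD, n = 2). Tet1 and Ezh2, the lowest at week 70, stood at 0.601 ± 0.155 and 1.37 ± 0.607 CPM per kilobase.

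**Figure D1:**
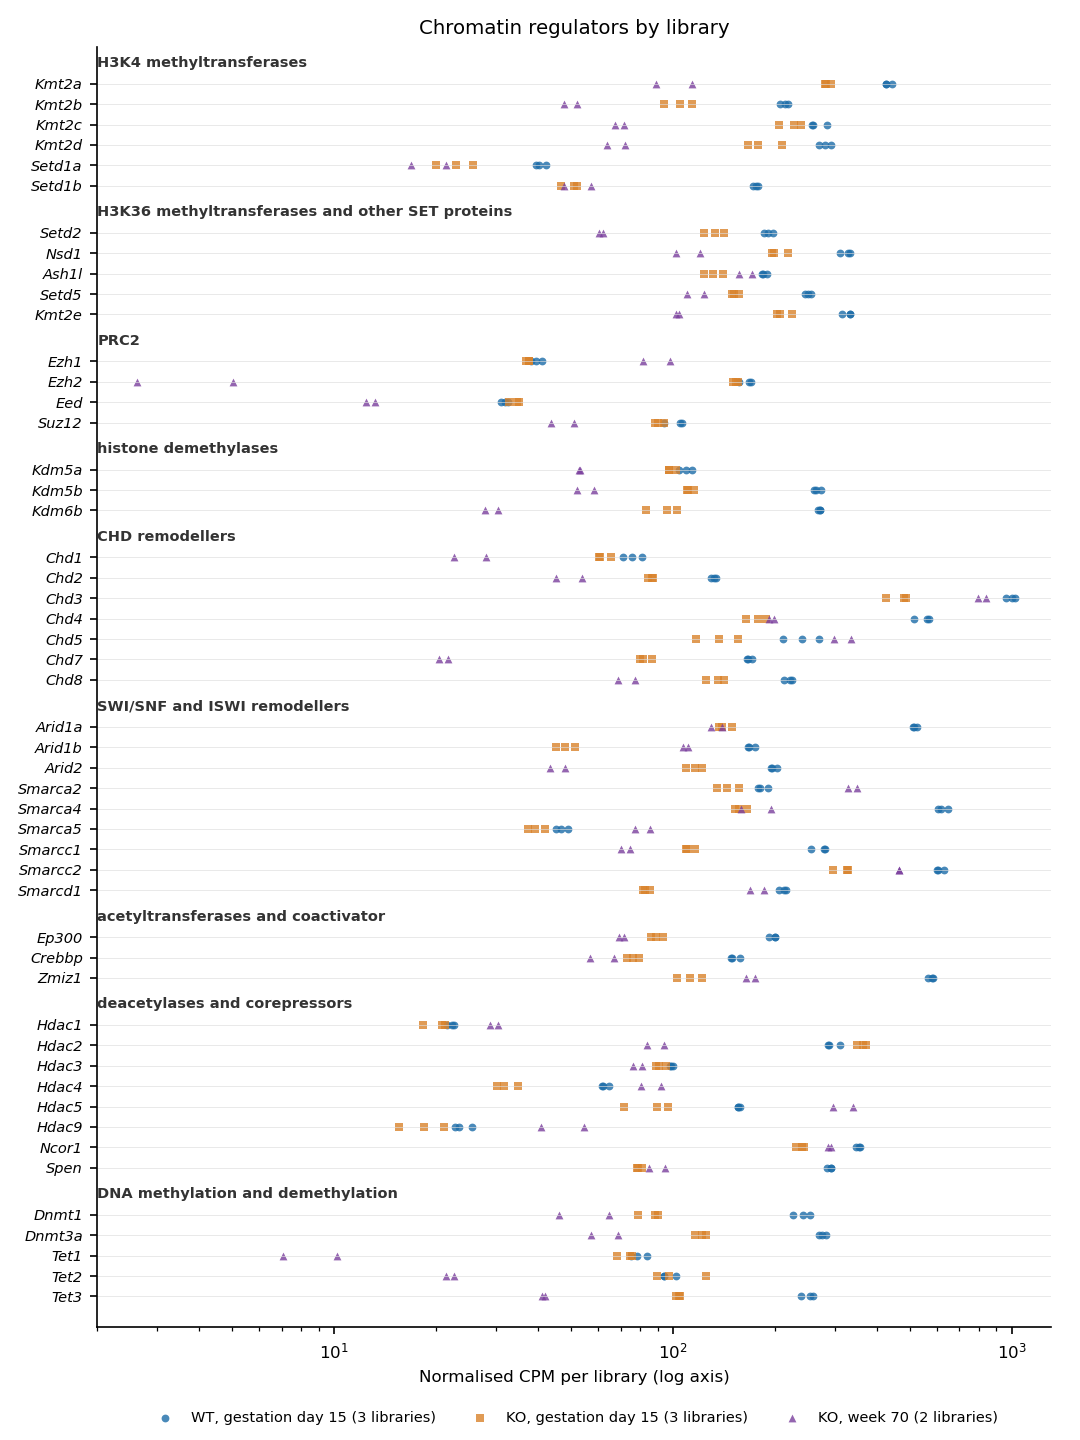
Normalised CPM (log axis) of the 50 chromatin regulators in each library, by class; circles are WT day 15, squares KO day 15 and triangles KO week 70. Most squares sit left of the circles, Ezh2 and Tet1 lie far to the left at week 70, and Hdac5 and Smarca2 lie to the right there.

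At day 15 most members had lower RNA levels in KO than in WT. Of the 50 members, all of which passed the filter on low counts, 40 were lower and 1, Hdac2, was higher (edgeR quasi-likelihood F-test, Benjamini-Hochberg adjusted p under 0.05), and 9 did not pass. Over all 19147 tested genes 62.6% passed, 32.5% lower and 30.1% higher. The median log2 fold change, KO minus WT, was -0.70 over the members and 0.03 over all tested genes. The CPM of the groups did not overlap for 47 members, where 68.3% of tested genes did not overlap; Suz12, Tet1 and Tet2 overlapped. A called fall of at least 1 on the log2 scale was found in 16 members, against 10.8% of tested genes. PRC2 was the only class in which no member passed.

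The size of these differences followed the base composition of the transcripts and, over all tested genes, also their length. For this reason 2 further settings are given beside them. The first, called the corrected value from here on, removes from each library its smooth trend on transcript length and GC content. After it 33 members passed, 25 lower and 8 higher, with a median of -0.16, while 50.8% of tested genes passed, 23.4% lower and 27.4% higher, with a median of 0.05. The second scales libraries by their upper quartile, which moved the median of all tested genes from 0.03 to 0.20. With it 35 members were lower and 3 higher (Hdac2, Eed and Tet2), with a median of -0.53, against 65.5% of tested genes passing, 25.7% lower and 39.8% higher. The falls of Kmt2c, Chd1, Smarca2, Smarca5 and Hdac9 lost their calls with this scaling, at -0.04, -0.08, -0.12, -0.04 and -0.17.

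Among the methyltransferases of histone H3 lysine 4 (H3K4), which mark promoters and enhancers of active genes, all 6 were lower before correction (median -0.68). Setd1b, a catalytic subunit of the SET1 complex, had 172, 178 and 176 CPM in the WT libraries and 51.9, 50.9 and 46.6 in KO. Every KO library was below every WT library. In edgeR, Setd1b had a log2 fold change of -1.77 (SE 0.0594, adjusted p 1.59e-08) and a corrected value of -0.62 (adjusted p 9.47e-06). It was the only member of its class that stayed lower. The corrected median of the class was 0.19: Kmt2b, Kmt2c, Kmt2d and Setd1a turned from -0.99, -0.21, -0.57 and -0.79 to 0.17, 0.21, 0.37 and 0.21, all called higher, and Kmt2a from -0.56 to 0.05, not called.

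The methyltransferases of H3K36, a mark of transcribed gene bodies, and related SET-domain proteins were lower by similar amounts, with a median of -0.59 and a range of -0.68 to -0.45 over 5 of 5 members. Setd5, a SET-domain protein that binds corepressor complexes, had 256, 250 and 245 CPM in WT and 149, 151 and 157 in KO. No KO library came near the WT range. In edgeR, Setd5 had a log2 fold change of -0.68 (SE 0.0565, adjusted p 2.41e-06), but the corrected value of -0.05 did not pass (adjusted p 0.464). Setd2, the enzyme that trimethylates H3K36, Nsd1, which dimethylates it, and Kmt2e, which binds methylated H3K4, kept their calls at corrected values of -0.23, -0.24 and -0.22, and Ash1l did not, at -0.13.

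No PRC2 gene passed the test at day 15. Ezh2 had 170, 167 and 156 CPM in WT and 150, 153 and 155 in KO. The KO libraries lay just below the WT range, and in edgeR Ezh2 had a log2 fold change of -0.07 with an SE of 0.0575 (adjusted p 0.313). The other members, Ezh1, Eed and Suz12, stood at -0.04, 0.14 and -0.12. The directions are unsettled, since the class median was -0.06 with TMM, 0.12 with upper-quartile scaling and -0.16 after correction. With the correction Ezh2 and Suz12 were called lower, at -0.32 and -0.36, and Ezh1 higher, at 0.43. Eed was called higher with upper-quartile scaling alone, at 0.32.

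Of the 3 histone demethylases 2 were lower. Kdm6b, which removes the repressive H3K27 mark that PRC2 writes, had 272, 271 and 268 CPM in WT and 103, 96.1 and 83.4 in KO. All KO libraries were far below all WT libraries. In edgeR, Kdm6b had a log2 fold change of -1.48 (SE 0.0752, adjusted p 8.15e-08) and a corrected value of -0.35 (adjusted p 0.00052). Kdm5b, an eraser of H3K4 methylation, stood at -1.21 and at a corrected -0.68, both called lower. Its paralog Kdm5a was not called, at -0.10 and 0.06.

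The CHD remodellers slide or eject nucleosomes with the energy of ATP, and all 7 were lower before correction, with a median of -0.78. Chd4, an ATPase of the NuRD complex that couples remodelling to histone deacetylation, had 560, 568 and 514 CPM in WT and 188, 178 and 164 in KO. No library of one genotype came near those of the other. In edgeR, Chd4 had a log2 fold change of -1.59 (SE 0.0697, adjusted p 3.63e-08), with a corrected value of -0.78 (adjusted p 4.66e-06). Only Chd4 and Chd7, the gene mutated in CHARGE syndrome, at a corrected -0.21, were called lower in both fits. Chd5, the NuRD ATPase of neurons, turned from -0.78 to 0.30 and was called in both directions. Chd1, Chd2, Chd3 and Chd8 lost their calls, at corrected values of -0.09, -0.02, -0.06 and -0.02, and the corrected median of the class was -0.06.

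The SWI/SNF (BAF) and ISWI remodellers were all lower, 9 of 9, with a median of -1.25. After correction 8 stayed lower, and the median of all 9 was -0.66. Smarca4, the BAF ATPase also called BRG1, had 616, 647 and 605 CPM in WT and 165, 157 and 152 in KO. Its KO libraries lay close together and far below WT. In edgeR, Smarca4 had a log2 fold change of -1.94 (SE 0.0618, adjusted p 1.43e-08) and a corrected value of -0.99 (adjusted p 7.97e-07). Arid1a and Arid1b, alternative DNA-binding subunits of BAF, stood at -1.83 and -1.77, with corrected values of -0.78 and -0.94. The scaffold subunit Smarcc1 and the core subunit Smarcd1 kept corrected values of -0.78 and -0.66. The remaining falls were smaller after correction, at -0.34 for Arid2 of the PBAF form, -0.23 for Smarcc2 and -0.35 for the ISWI ATPase Smarca5. Smarca2, the alternative ATPase to Smarca4, was the exception and turned from -0.29 to a called 0.37.

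The acetyltransferases and their coactivator were lower in both fits, 3 of 3, with a median of -1.10 and a corrected median of -0.34. Zmiz1, a coactivator of the PIAS-like family, had 564, 583 and 581 CPM in WT and 122, 112 and 103 in KO. This was the largest fall of the 50 members before and after correction. In edgeR, Zmiz1 had a log2 fold change of -2.32 (SE 0.0717, adjusted p 1.39e-08) and a corrected value of -1.35 (adjusted p 2.49e-07). The paralogous acetyltransferases Ep300 and Crebbp stood at -1.10 and -0.96, with corrected values of -0.34 and -0.18.

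Deacetylases and corepressors held the only member called higher. Hdac2, a class I deacetylase of the NuRD and Sin3 complexes, had 288, 310 and 287 CPM in WT and 350, 364 and 370 in KO. Each KO library was above each WT library. In edgeR, Hdac2 had a log2 fold change of 0.33 (SE 0.0624, adjusted p 0.000884), but the corrected value of -0.05 did not pass and had the other sign (adjusted p 0.452). Spen, a corepressor that recruits deacetylases, had 285, 292 and 292 CPM in WT and 78.4, 80.8 and 78.9 in KO. The KO libraries were nearly equal and far below WT. In edgeR, Spen had a log2 fold change of -1.83 (SE 0.0568, adjusted p 1.39e-08) and a corrected value of -0.78 (adjusted p 2.82e-06). It was the only one of the 8 genes called after correction. The class IIa deacetylases Hdac4, Hdac5 and Hdac9, which shuttle between nucleus and cytoplasm, and the corepressor Ncor1 went from -0.92, -0.82, -0.34 and -0.53 to -0.09, 0.11, -0.03 and 0.06. Hdac1 and Hdac3 were not called in either fit, at -0.10 and -0.07 before correction.

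Of the 5 genes of DNA methylation and demethylation 3 were lower. Dnmt1, which copies methylation onto new DNA strands, had 241, 253 and 226 CPM in WT and 90.5, 88.3 and 78.9 in KO. The groups were far apart. In edgeR, Dnmt1 had a log2 fold change of -1.44 (SE 0.0706, adjusted p 6.52e-08) and a corrected value of -0.63 (adjusted p 2.17e-05). Dnmt3a, the de novo methyltransferase, and Tet3, an oxidase that starts demethylation, were lower at -1.15 and -1.23, and at -0.35 and -0.36 after correction. Tet1 was not called in either fit, at -0.08 and 0.05. Tet2 stood at 0.15, not called, and at a corrected 0.49, called higher. Its KO libraries were uneven, at 89.7, 97.1 and 125 CPM, and overlapped the WT range of 94 to 102.

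**Figure D2:**
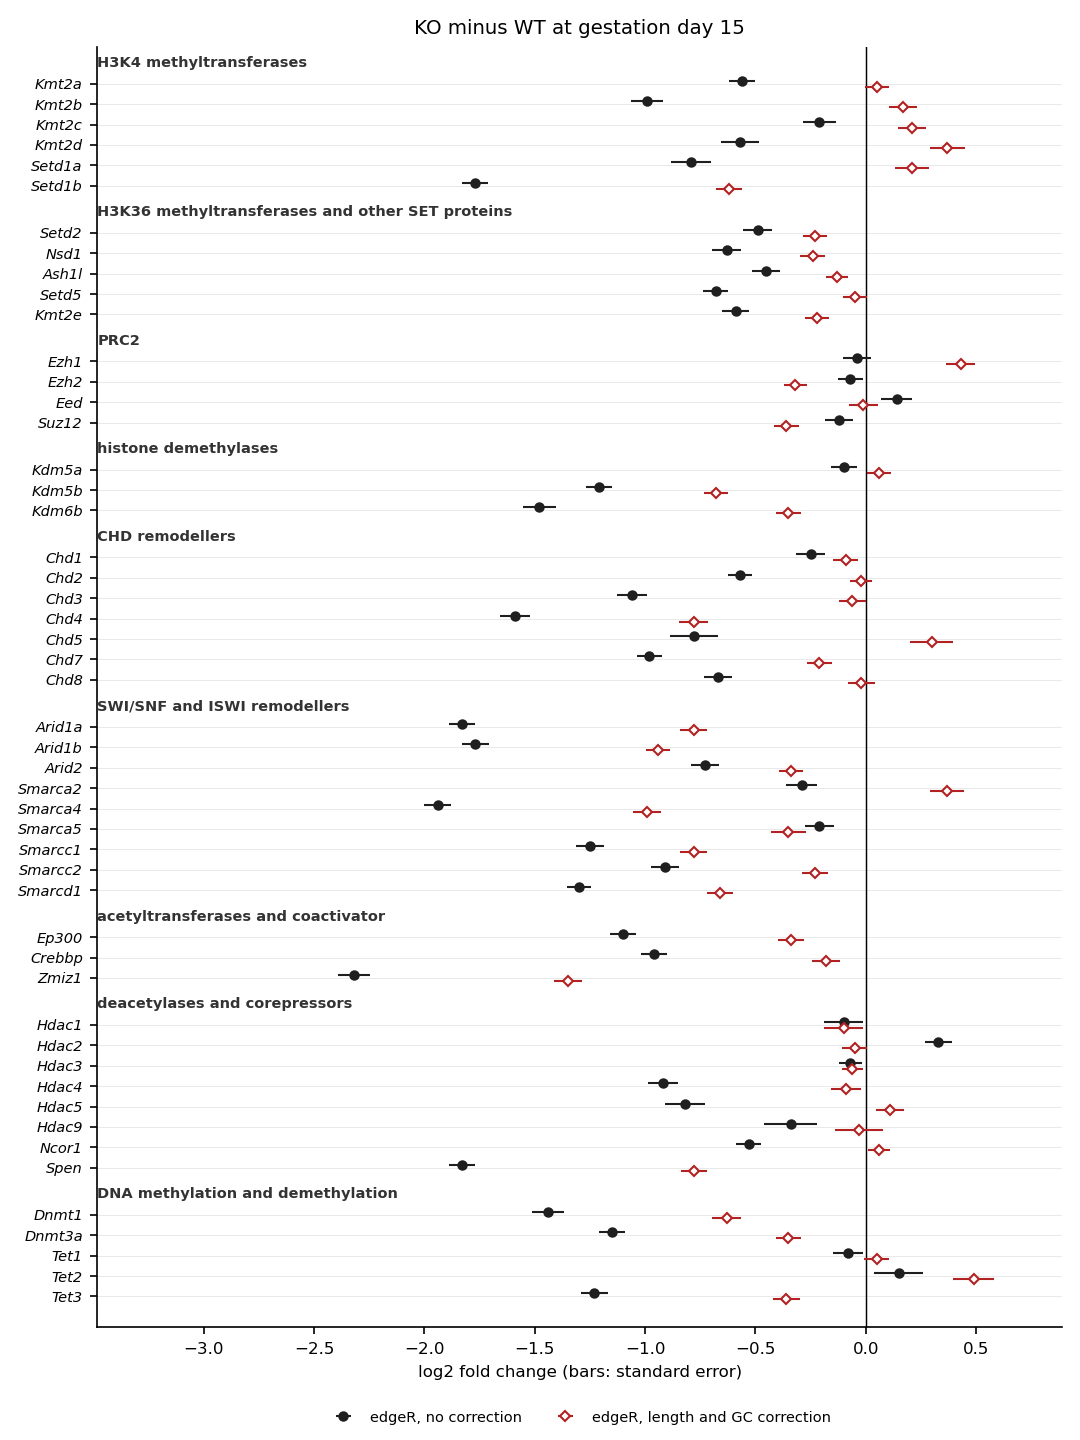
Log2 fold change, KO minus WT at day 15, of each member with its standard error, from edgeR without (filled circles) and with (open diamonds) the length and GC correction. The diamonds lie to the right of the circles for most genes, and Zmiz1, Smarca4, Arid1b and Chd4 stay well below 0 in both.

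The members are long genes. Their longest coding transcripts had a median of 8143 bases (range 2032 to 19823), against 3199 for the 14600 other protein-coding genes tested, and 46 of the 50 were above that value. Their GC content was ordinary, with a median of 50.9% (40.7 to 59.6) against 50.3%. Across the 50 members the genotype change fell with GC content, with a Spearman rho of -0.71 before and -0.14 after correction, and over all tested genes rho was -0.47 and -0.01. With transcript length, rho over all tested genes was -0.39 before and -0.01 after correction, and over the members -0.16 and 0.12. These are correlations across genes, which share their libraries and are not independent. Among transcripts of at least 5000 bases with GC above 55%, the 11 members had a median of -1.48 and the 417 other protein-coding genes -1.06. After correction the medians were -0.35 and -0.08. Between 50% and 55% GC the 11 members stood at -1.10 and the 724 others at -0.83, corrected -0.34 and -0.10. For 45% to 50% GC the 13 members and 962 others were at -0.59 and -0.45, corrected -0.05 and -0.02. Below 45% GC the 5 members were at -0.21 and the 1089 others at 0.12, corrected -0.09 and 0.09. Long GC-rich genes at large were lower in KO, and the members' medians lay below those of their peers in each of the 4 ranges, most so above 50% GC on the corrected scale. The members were chosen with earlier results of these data known, so these gaps are a description and no test of the list. The source of the trends on GC content and transcript length was not tested.

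**Figure D3:**
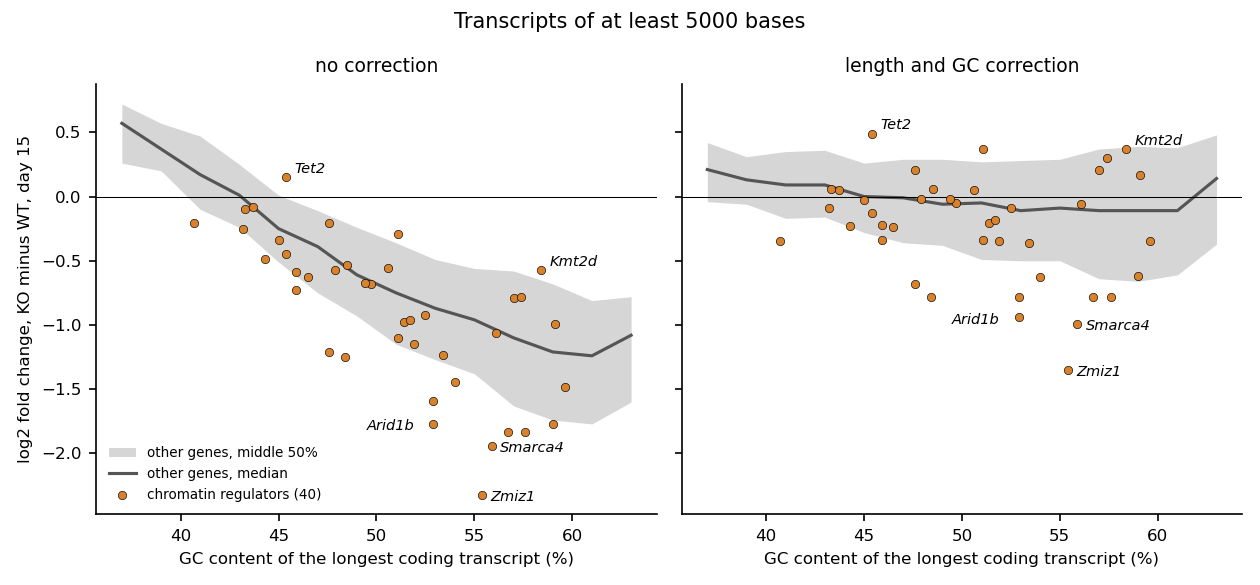
Log2 fold change, KO minus WT at day 15, against GC content of the longest coding transcript, for the 40 members with transcripts of at least 5000 bases (points) and for other protein-coding genes of that length (line: median, band: middle 50%), without correction on the left and with it on the right. The slope on GC is smaller on the right but not gone, with the median of other genes at 0.21 for 36% to 38% GC and at -0.11 for 60% to 62%. Zmiz1, Smarca4 and Arid1b remain below the band there.

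A fall that stayed large was found in 11 members, which were called lower in both fits, by at least 1 before and at least 0.5 after correction: Setd1b, Kdm5b, Chd4, Arid1a, Arid1b, Smarca4, Smarcc1, Smarcd1, Zmiz1, Spen and Dnmt1. The same criteria held for 7.90% of the 19050 genes in both fits. BAF subunits made up 5 of the 11. In all, 23 members were called lower in both fits, against 18.5% of these genes, 11 lost their call (11.1%) and 6 turned to a called rise (3.01%). The corrected rises were less firm than the falls. Leaving out 1 library at a time gave 4 to 7 higher members in place of 8, with 4 without KO replicate 2 and 5 without KO replicate 1 or WT replicate 3, and 24 to 26 lower.

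Age was compared within KO, and here the classes diverged. From day 15 to week 70, 30 of the 50 members fell and 13 rose (edgeR, adjusted p under 0.05), while 82.0% of the 20000 tested genes passed, 44.4% lower and 37.6% higher. The median was -0.60 over the members and -0.19 over all tested genes. The groups did not overlap for 46 members, against 87.9% of tested genes, and 19 members fell by at least 1, against 34.3%. After the length and GC correction 48 members passed, 37 lower and 11 higher, at a median of -0.83, where 79.1% of tested genes passed, 41.7% lower and 37.4% higher. All 30 falls were also called after correction, and 9 of the 13 rises; over the genes in both fits 35.7% were lower and 31.7% higher in both. Upper-quartile scaling moved the median of all tested genes to -0.44 and gave 32 members lower and 12 higher, against 82.3% of tested genes passing, 49.8% lower and 32.4% higher. A trend on GC content ran through the age comparison too, with the opposite sign. Spearman rho was 0.36 over the members and 0.29 over the 18803 genes tested in both comparisons, and 0.01 and 0.05 after correction. With transcript length, rho was -0.25 over the members and 0.22 over those genes, and -0.13 and 0.08 after correction. Among transcripts of at least 5000 bases above 55% GC, the 417 other protein-coding genes had a median of 0.63, corrected -0.35. The 11 members there stood at -0.02, corrected -0.92. The source of these trends was not tested. With 2 libraries at week 70, the spread there is poorly known. These libraries also differed in the Y-linked gene Uty, at 0 counts in replicate 1 and 252 in replicate 2. Every day 15 library had 0 counts of Uty, and any part of sex in the age values was not tested. The KO day 15 libraries enter both the genotype and the age comparison, so that the error of their values enters both with opposite sign.

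The H3K4 methyltransferases fell in 5 of 6 members, at a median of -1.35 (corrected -1.32). Kmt2c, which with Kmt2d places monomethyl marks at enhancers, had 206, 228 and 238 CPM at day 15 and 71.7 and 67.5 at week 70. Both older libraries were far below all younger ones. In edgeR, Kmt2c had a log2 fold change, week 70 minus day 15, of -1.79 (SE 0.1, adjusted p 4.63e-08) and a corrected value of -1.24. Kmt2a, Kmt2b and Kmt2d were also lower by more than 1, at -1.59, -1.17 and -1.54. Setd1a fell by 0.36 with overlapping libraries, and Setd1b, at -0.02, was not called (edgeR adjusted p 0.838). Both stood lower in the other settings, at a corrected -1.35 and -0.92 and, with upper-quartile scaling, at -0.61 and -0.27, all called, so that the class then held 6 falls of 6.

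In the H3K36 class 4 of 5 fell, at a median of -0.98 (corrected -0.83). Setd2 had 123, 133 and 141 CPM at day 15 and 60.4 and 62.2 at week 70. The older libraries were close to each other and below all younger ones. In edgeR, Setd2 had a log2 fold change of -1.21 (SE 0.0964, adjusted p 7.66e-07), corrected -0.83. Ash1l was the exception in direction, at 0.22, not called (adjusted p 0.0514), and at a corrected 0.79, called higher.

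The 2 enzymes of PRC2 moved in opposite directions with age. Ezh2 had 150, 153 and 155 CPM in KO day 15 and 5.01 and 2.62 at week 70. Nothing else among the members fell as far. In edgeR, Ezh2 had a log2 fold change of -5.41 (SE 0.19, adjusted p 1.52e-09), corrected -5.07. Ezh1 moved the other way, from 37.5, 36.9 and 37.5 CPM to 81.5 and 97.6. Both older libraries were above every fetal library of either genotype. In edgeR, Ezh1 had a log2 fold change of 1.16 (SE 0.0972, adjusted p 1.11e-06), corrected 0.67. The shared core subunits Eed and Suz12 fell by 1.51 and 1.04. Proliferation markers, at most 6.2 CPM in sum at week 70, fell with Ezh2, and their part was not tested.

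All 3 histone demethylases fell. Kdm6b, at 103, 96.1 and 83.4 CPM in KO day 15, had 30.5 and 27.9 at week 70. It was thus lower in KO than in WT and lower again at week 70. In edgeR, Kdm6b had a log2 fold change of -1.79 (SE 0.113, adjusted p 1.14e-07), corrected -2.97. Kdm5a and Kdm5b fell by 0.99 and 1.12 on the log2 scale, with corrected values of -0.25 and -1.04.

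CHD remodellers went both ways, with 4 falls and 2 rises. Chd7 had 86.8, 81.6 and 80 CPM in KO day 15 and 20.4 and 21.7 at week 70. The libraries of each age lay close together. In edgeR, Chd7 had a log2 fold change of -2.07 (SE 0.0954, adjusted p 1.01e-08), corrected -2.19. Chd5 rose from 155, 137 and 117 CPM to 298 and 334, above the fetal WT range of 211 to 269 as well. In edgeR, Chd5 had a log2 fold change of 1.11 (SE 0.114, adjusted p 5.92e-06), corrected 0.42. Of the other NuRD ATPases, Chd3 stood at 0.72, called higher, and Chd4, not called, at 0.05, with corrected values of -0.13 and -0.59. Chd1, Chd2 and Chd8 fell by 1.40, 0.90 and 0.97.

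In the SWI/SNF and ISWI class 5 members rose and 2 fell (median 0.45). This balance turned after correction, with 3 higher, 5 lower and a median of -0.33, and 1 of the rises in both fits, Smarca5, depends on its pseudogenes. Smarca2, the BAF ATPase also called BRM, had 135, 144 and 156 CPM in KO day 15 and 329 and 349 at week 70. The older libraries exceeded all fetal ones of both genotypes. In edgeR, Smarca2 had a log2 fold change of 1.13 (SE 0.0926, adjusted p 9.8e-07), corrected 0.58. Arid2 fell from 109, 116 and 122 CPM to 43.3 and 48. In edgeR, Arid2 had a log2 fold change of -1.44 (SE 0.0981, adjusted p 2.1e-07), corrected -1.21. Arid1b rose by 1.08, corrected 0.93, and Smarcc1 fell by 0.72. Smarca4 and Arid1a, at 0.06 and -0.17, were not called and became lower after correction, at -0.86 and -0.96. Smarcd1 at 0.99 lost its call at a corrected 0.11, and Smarcc2 at 0.45 turned to -0.33.

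Of the acetyltransferase class, Ep300 had 86.1, 89.1 and 93.3 CPM in KO day 15 and 69.3 and 71.6 at week 70, a modest and clean separation. In edgeR, Ep300 had a log2 fold change of -0.44 (SE 0.0858, adjusted p 0.000693), corrected -0.60. Zmiz1, at 122, 112 and 103 CPM in KO day 15, had 164 and 175 at week 70, below the fetal WT libraries at 564 to 583. No WT library of week 70 was at hand, so genotype and age cannot be told apart in that contrast. In edgeR, Zmiz1 had a log2 fold change of 0.49 (SE 0.0929, adjusted p 0.000588), but the corrected value was -0.26 and called lower (adjusted p 0.00772). Crebbp fell by 0.40.

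Deacetylases went both ways, with 2 falls and 4 rises in the class with its corepressors. Hdac2, at 350, 364 and 370 CPM in KO day 15, had 83.9 and 94 at week 70. Those were below every fetal library of both genotypes. In edgeR, Hdac2 had a log2 fold change of -2.12 (SE 0.0971, adjusted p 9.67e-09), corrected -1.58. Hdac5 rose from 96.4, 89.8 and 71.4 CPM to 340 and 297, above the fetal WT libraries at 155 to 158. In edgeR, Hdac5 had a log2 fold change of 1.79 (SE 0.122, adjusted p 2.13e-07), corrected 0.63. The other class IIa genes, Hdac4 and Hdac9, rose by 1.32 and 1.27, corrected 0.88 and 1.52. Hdac3 fell by 0.32, and Hdac1, at 0.46, is taken up below with its pseudogenes. The corepressors Ncor1 and Spen, at 0.19 and 0.08, were not called. After correction they were called in opposite directions, at 0.22 and -0.40, and the class then held 5 rises and 3 falls, while upper-quartile scaling left both uncalled at -0.06 and -0.17. All 8 mature neuron markers rose with the class IIa genes, and their part was not tested.

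All 5 genes of DNA methylation and demethylation fell, at a median of -1.42 (corrected -1.66). Tet1 had 68.1, 74.6 and 75.7 CPM in KO day 15 and 7.06 and 10.2 at week 70. The older libraries were far below every fetal library of either genotype. In edgeR, Tet1 had a log2 fold change of -3.18 (SE 0.151, adjusted p 1.29e-08), corrected -2.27. Tet2 and Tet3 fell by 2.34 and 1.42, Dnmt3a by 1.04 and Dnmt1 by 0.73, with corrected values of -1.98, -1.66, -1.27 and -1.53.

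**Figure D4:**
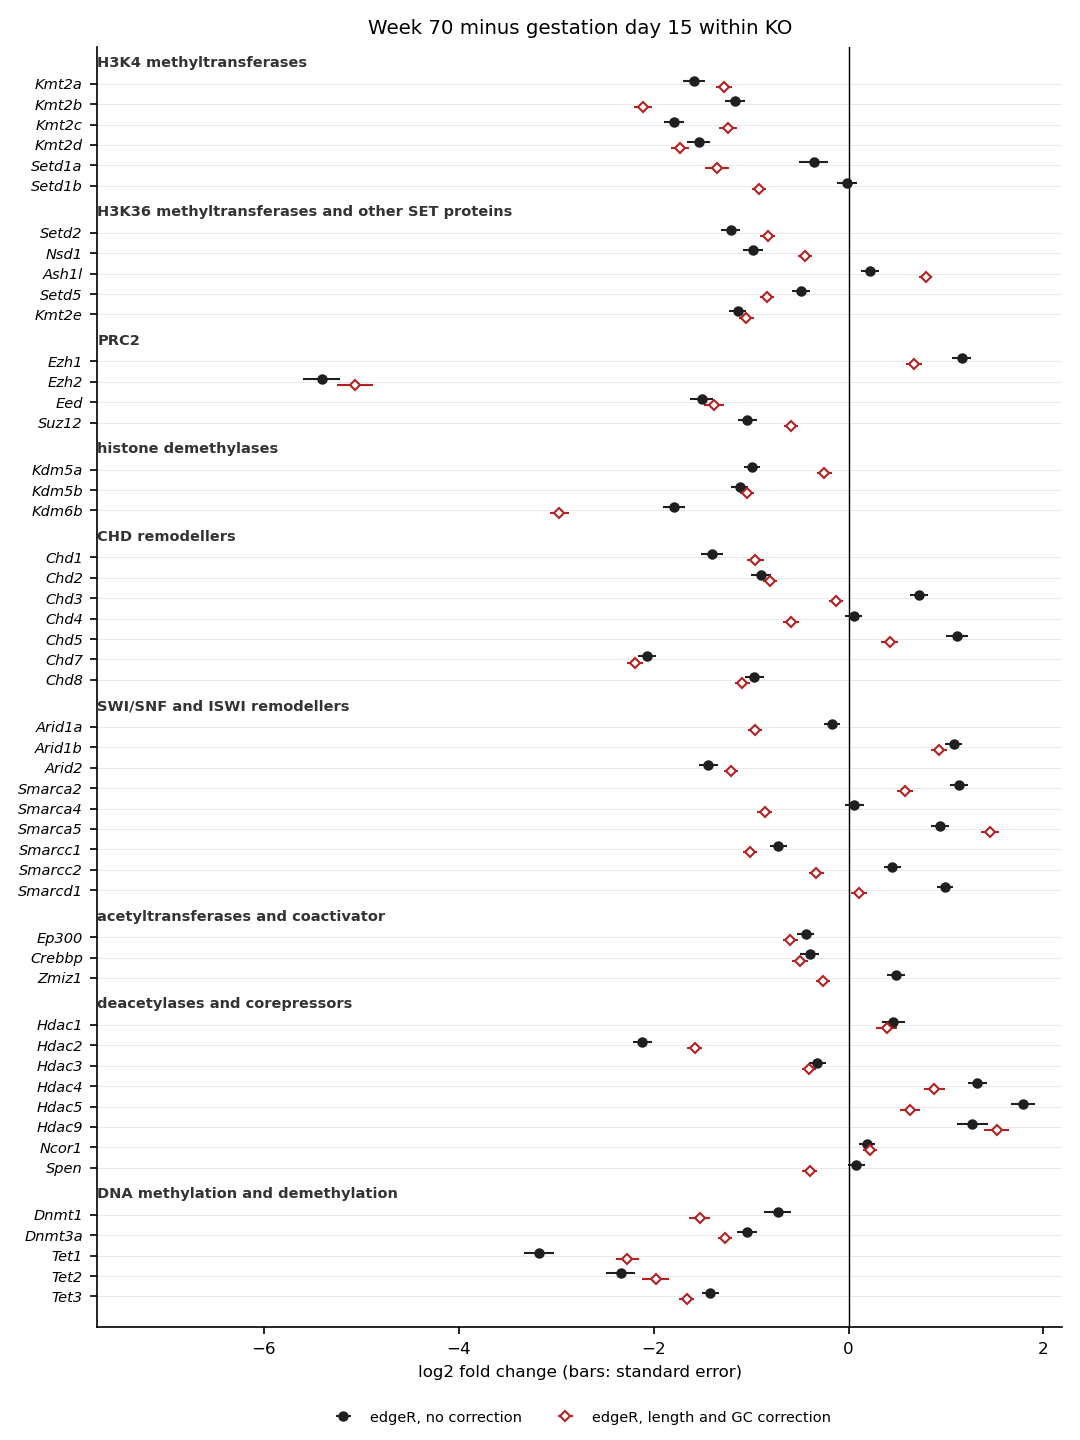
Log2 fold change, week 70 minus day 15 within KO, of each member with its standard error, from edgeR without (filled circles) and with (open diamonds) the length and GC correction. Ezh2 lies far to the left at -5.41, the class IIa deacetylases, Ezh1 and Smarca2 lie right of 0 in both fits, and all genes of DNA methylation lie left of 0.

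Paralogs that replace each other in a complex were compared as the share of the first gene in the sum of both, per kilobase of transcript. The shares rest on CPM without the length and GC correction. Ezh2 made up 86.2% ± 0.967 of Ezh2 plus Ezh1 in WT and 86% ± 0.226 in KO day 15 (SD, n = 3 each), and 8.49% and 3.9% at week 70. The fetal genotypes overlapped on these uncorrected values, and the older libraries lay far below. With the correction, Ezh2 was called lower in KO at day 15, at -0.32, and Ezh1 higher, at 0.43. Smarca4 made up 76% ± 0.289 of Smarca4 plus Smarca2 in WT, 50.3% ± 2.82 in KO day 15, and 31% and 34% at week 70. The 3 groups did not overlap. Lengths taken as the union of exons gave 88.3%, 70.6% and 53.3% on average, so the order of groups held, but whether the ATPases are level in KO day 15, and whether Smarca2 exceeds Smarca4 at week 70, depends on the length used. Arid1a made up 80.9% ± 0.544 of Arid1a plus Arid1b in WT and 80.3% ± 0.362 in KO day 15, which overlapped, and 61.7% and 64.3% at week 70. Both Arid1 genes fell evenly in KO, whereas Smarca4 fell and the change of Smarca2 depended on the setting. Smarca2 stood at -0.29, called lower, at a corrected 0.37, called higher, and at -0.12, not called, with upper-quartile scaling. Hdac2 made up 89.3% ± 0.301 of Hdac2 plus Hdac1 in WT, 91.8% ± 0.766 in KO day 15 and 64.6% and 66% at week 70, without the pseudogenes of Hdac1. After correction neither gene was called in KO at day 15, with Hdac2 at -0.05 and Hdac1 at -0.10.

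**Figure D5:**
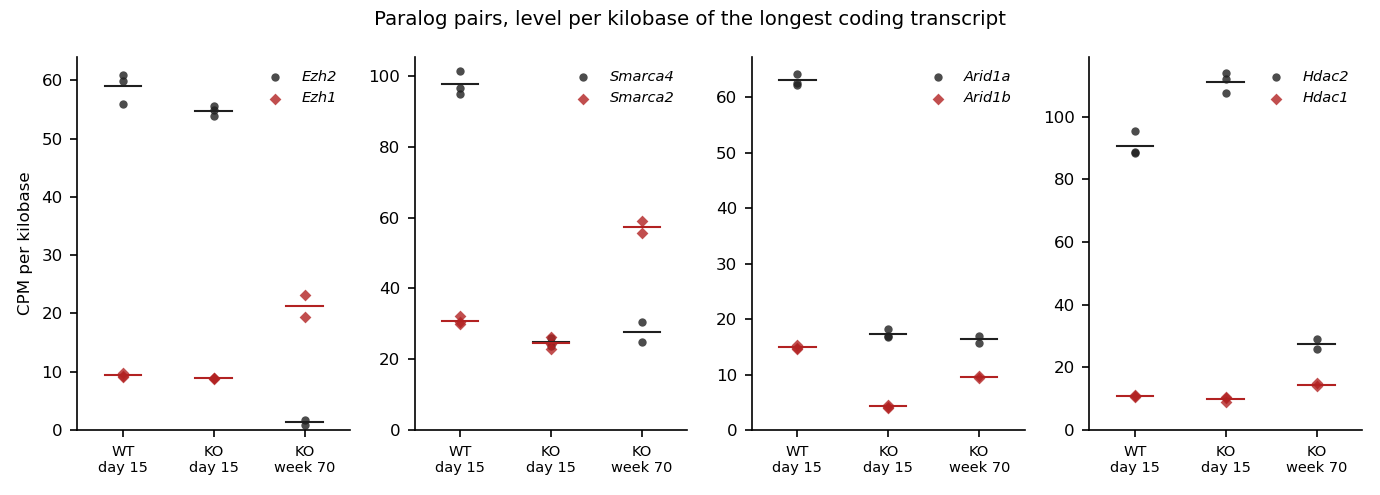
CPM per kilobase of the longest coding transcript, without the length and GC correction, for 4 paralog pairs in each library (points) with group means (lines), in WT day 15, KO day 15 and KO week 70. Ezh2 and Ezh1 cross between day 15 and week 70, Smarca4 is level with Smarca2 in KO day 15 on this length (but not per union of exons), and Arid1a and Arid1b both drop there; Hdac1 is shown without its pseudogenes.

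The levels of Hdac1 and Smarca5 are uncertain, since near-identical pseudogenes held a large share of the counts. Transcripts of 12 annotated pseudogenes aligned best to a member, spread over 5 members, and their counts were summed with that member's in a fit chosen after the data were seen. At Hdac1, 3 pseudogenes held 65.3% of the summed counts in WT, 57.2% in KO day 15 and 6.8% at week 70. For Smarca5, 6 pseudogenes held 56.7%, 57.6% and 4.14%. How reads that match several places were counted is not given in the sources used here. Summed with its pseudogenes, Hdac1 had 63.7 ± 4.19 CPM in WT, 47 ± 2.85 in KO day 15 (SD, n = 3 each) and 30.8 and 32.7 at week 70. On these sums, Hdac1 was lower in KO (edgeR log2 fold change -0.40, adjusted p 0.00042) and lower at week 70 (-0.66, adjusted p 0.000104). The gene alone stood at -0.10, not called, and 0.46, called higher (adjusted p 0.00373). Summed Smarca5 was lower with age at -0.23 (edgeR adjusted p 0.0278), where the gene alone stood at 0.94 (adjusted p 3.64e-06), and with the length and GC correction the sum stood at 0.28 (adjusted p 0.0147). The genotype call of Smarca5 alone (-0.21, edgeR adjusted p 0.0181) did not pass without KO replicate 2 or 3 (adjusted p 0.0567 and 0.0573) or with upper-quartile scaling (-0.04, adjusted p 0.629), and the age call of Hdac1 alone did not pass with that scaling (0.21, adjusted p 0.111). The direction of both genes with age therefore depends on where the reads of the pseudogenes belong. At Ep300, Kmt2d and Smarcc1 the pseudogenes held at most 0.883% of the counts.

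A further 126 chromatin genes that are not among the 50, of which 125 were tested, set these changes beside their complexes. At day 15, 80 were lower and 15 higher in KO, with a median of -0.36. With upper-quartile scaling 64 were lower and 25 higher, and after correction 41 and 35, with a median of 0.01. Among the largest falls were those of Uhrf1, which brings Dnmt1 to replicated DNA, at 59.8 ± 5.09 CPM in WT and 16.5 ± 1.53 in KO (edgeR log2 fold change -1.82, corrected -1.31), and Hcfc1, a cofactor of the SET1 complexes, at 363 ± 17.3 and 103 ± 2.56 (-1.77, corrected -0.84). Both passed in both fits. The largest rises were in Dpy30, a subunit shared by the H3K4 methyltransferase complexes, at 21.6 ± 1.08 and 45.8 ± 1.47 CPM (1.12), Mtf2, an accessory subunit of PRC2, at 105 ± 4.41 and 159 ± 12.9 (0.64), and Mbd4, a DNA glycosylase, at 13.9 ± 2.43 and 20.2 ± 0.821 (0.58). After correction only Mbd4 of these remained called, at 0.42, while Dpy30 and Mtf2 stood at 0.03 and 0.10.

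With age, 83 of the 125 fell and 25 rose, at a median of -0.61 (corrected 94 and 19, median -0.86). Uhrf1 fell furthest, from 16.5 ± 1.53 CPM to 1.06 and 0.966 (edgeR log2 fold change -4.12, adjusted p 3.83e-08), ahead of Cbx2, a Polycomb protein of PRC1, from 40.3 ± 4.49 to 3.43 and 2.14 (-3.95, adjusted p 1.86e-08). Dnmt3b, the de novo methyltransferase of the early embryo, fell from 7.23 ± 1.21 to 0.924 and 0.414 CPM (-3.51, edgeR adjusted p 6.24e-06). The largest rises were in other PRC1 and NuRD genes. Cbx7 went from 15.6 ± 1.74 to 92.3 and 101 CPM (2.53), Mta3 from 24.3 ± 2.39 to 122 and 132 (2.29) and Cbx6 from 134 ± 7.61 to 710 and 623 (2.22). All 6 kept their direction and call after correction. Among the Cbx proteins, which compete for a place in PRC1, Cbx2 and Cbx7 thus moved in opposite directions, as Ezh2 and Ezh1 did in PRC2.

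The subunits that BAF exchanges during neurogenesis did not show a mirror pattern. The progenitor subunits Actl6a, Phf10, Dpf2 and Ss18 all fell with age, by 1.92, 0.42, 0.57 and 0.38, but so did the neuronal subunits Actl6b, Dpf1, Dpf3 and Ss18l1, by 0.33, 1.45, 1.30 and 0.70. After correction Phf10 and Ss18 lost their calls, and the neuronal subunits stayed lower, at -0.81, -2.32, -1.80 and -1.04. In KO at day 15, Actl6a and Dpf2 of the progenitor set were lower at -0.33 and -0.27, and Actl6b, Dpf3 and Ss18l1 of the neuronal set at -0.17, -1.40 and -0.37. After correction the fall of Actl6a (-0.40) and of Dpf3 (-1.01) remained, while Phf10 was called lower (-0.30) and Dpf1 higher (0.35).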

How the data were processed

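RNA of whole mouse brain was sequenced after poly-A selection and random priming, per the labels' protocols. For each gene and each of 8 libraries the authors deposited unnormalised counts of reads. The submitters' processing notes name FastQC, cutadapt, Trimmomatic, HISAT2, featureCounts and edgeR, and the builds GRCm38 and GRCm39, with no role or version; the counting of strand and of reads with several matches is not given in the sources used here. Groups were taken from the labels. Each comparison was fitted on its own libraries with edgeR 4.0.16 in R 4.3.3 (expression filter filterByExpr, TMM scaling, quasi-likelihood F-test, Benjamini-Hochberg adjustment over all tested genes, threshold 0.05), after a test on simulated data. Library totals of 14110031 to 20833397 counts set the precision. CPM values were scaled by TMM over all 8 libraries.

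Transcript lengths and GC content came from GENCODE release M21 on GRCm38 (97.3% of gene IDs and all 50 members matched), and promoter windows from RefSeq (36 of the members). The length and GC correction fitted smooth terms with mgcv 1.9.3 to each library's deviation from the mean and used them as offsets. Pseudogenes were matched to members with minimap2 2.31 (at least 50% aligned at 85% identity). Alternatives were DESeq2 1.42.0, upper-quartile and RLE scaling, other filters, all 8 libraries in 1 fit, a replicate block, and leaving out each library. The members and lists were chosen with earlier results of these data known. All members may be named; full values are given for the called member with the largest rise and the largest fall in each class, and, of the other chromatin genes with a mean of at least 50 counts, for the 3 largest rises and falls. A gene that this rule names is not reported here. The library values of Ezh2 and Tet2 in the genotype comparison fall outside this rule and were chosen after they were seen. With 3 libraries against 3, an exact permutation test of 1 gene cannot go below 0.1.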

Additional observations from a re-analysis of the deposited data

How the results depend on the processing

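Classes are given in the order H3K4 methyltransferases, H3K36 and other SET proteins, PRC2, histone demethylases, CHD remodellers, SWI/SNF and ISWI remodellers, acetyltransferases, deacetylases and corepressors, and DNA methylation, and medians are log2 fold changes. For genotype, 41 members were called with DESeq2, RLE scaling, a mean of at least 10 counts, all 8 libraries in 1 fit or a replicate block, and 44 with no filter. DESeq2, RLE scaling and the mean of at least 10 counts gave the demethylases a median of -1.15 with age. All 8 libraries in 1 fit gave genotype medians of -0.74 (members), -1.25 (demethylases) and -0.47 (deacetylases), and age medians of -0.50 (members), -1.02 (demethylases), 0.55 (SWI/SNF), -0.30 (acetyltransferases) and 0.42 (deacetylases). With no filter the genotype medians were -0.79 over the members and -0.77, -0.68, -0.15, -1.30, -0.87, -1.34, -1.19, -0.53 and -1.24 by class. Upper-quartile scaling gave 3 members and 25 other chromatin genes higher in KO, genotype medians of -0.53 and by class -0.51, -0.42, 0.12, -1.03, -0.60, -1.07, -0.93, -0.26 and -0.98, and age medians of -0.86 and by class -1.60, -1.23, -1.53, -1.37, -1.15, 0.20, -0.65, 0.07 and -1.67. PRC2 changed sign there. The length and GC correction gave 8 members higher and 25 lower in KO, 35 and 41 other chromatin genes, medians of -0.16 and by class 0.19, -0.22, -0.16, -0.35, -0.06, -0.66, -0.34, -0.06 and -0.35, and Hdac2 at -0.05. With age it gave -0.83 over the members, -0.83 (H3K36), -0.99 (PRC2), -1.04 (demethylases), -0.33 (SWI/SNF), -0.50 (acetyltransferases) and -1.66 (DNA methylation), and Zmiz1 at -0.26. The cause of these shifts was not tested.

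Replicate numbers did not pair the libraries: deviations of same-numbered libraries correlated at -0.144, -0.169 and -0.146 for genotype and at 0.0255 and 0.00582 for age. The replicate block called 41 members for genotype and 44 for age. Joined with the length and GC correction, the replicate block gave 6 members higher and 24 lower in KO, 34 and 40 other chromatin genes, genotype medians of -0.16 and by class 0.19, -0.22, -0.16, -0.35, -0.05, -0.66, -0.34, -0.06 and -0.35, and Hdac2 at -0.05. With age that block gave -0.81 over the members, -0.81 (H3K36), -0.99 (PRC2), -1.05 (demethylases), -0.34 (SWI/SNF) and -1.64 (DNA methylation), and Zmiz1 at -0.29.

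Chosen after seeing the data, the sums with pseudogenes gave age medians of -0.69 (members), 0.06 (SWI/SNF) and 0.13 (deacetylases), with Hdac1 at -0.66 and Smarca5 at -0.23. With the correction, these sums gave 8 members higher and 26 lower in KO, 35 and 41 other chromatin genes, genotype medians of -0.20 and by class 0.19, -0.22, -0.17, -0.35, -0.06, -0.66, -0.34, -0.06 and -0.35, and Hdac2 at -0.06. The age medians were then -0.83 (members), -0.83 (H3K36), -0.99 (PRC2), -1.04 (demethylases), -0.33 (SWI/SNF), -0.50 (acetyltransferases), -0.09 (deacetylases) and -1.65 (DNA methylation), with Zmiz1 at -0.26 and Hdac1 at -0.73.

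Leaving out 1 library at a time called 39 to 42 members for genotype and 42 to 45 for age. Of the other chromatin genes 12 to 16 were higher and 76 to 80 lower in KO. Genotype medians ran from -0.72 to -0.70 over the members and by class from -0.79 to -0.64, -0.63 to -0.57, -0.07 to -0.06, -1.24 to -1.19, -0.89 to -0.71, -1.30 to -1.23, -1.13 to -1.08, -0.50 to -0.38 and -1.19 to -1.12, with Hdac2 from 0.29 to 0.37. Age medians ran from -0.66 to -0.45 over the members and by class from -1.40 to -1.27, -1.11 to -0.85, -1.36 to -1.19, -1.20 to -1.02, -1.03 to -0.77, 0.41 to 0.48, -0.47 to -0.28, 0.30 to 0.36 and -1.43 to -1.39, with Zmiz1 from 0.44 to 0.56. With the correction as well, also chosen after seeing the data, 4 to 7 members were higher and 24 to 26 lower in KO, and 31 to 35 other chromatin genes higher and 38 to 42 lower. The genotype medians then ran from -0.18 to -0.13 over the members and by class from 0.14 to 0.22, -0.25 to -0.19, -0.19 to -0.15, -0.38 to -0.32, -0.07 to -0.01, -0.69 to -0.62, -0.39 to -0.31, -0.09 to -0.03 and -0.38 to -0.31, with Hdac2 from -0.09 to -0.02. The age medians then ran from -0.86 to -0.78 over the members and by class from -1.42 to -1.29, -0.87 to -0.76, -1.10 to -0.82, -1.06 to -1.02, -0.86 to -0.76, -0.36 to -0.25, -0.56 to -0.46, 0.21 to 0.40 and -1.72 to -1.63, with Zmiz1 from -0.29 to -0.21. Where a week 70 library is left out, the other is assumed to vary like the day 15 libraries. Members at the lowest levels, such as Ezh2 at week 70, rest on few counts.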

Other observations

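The paralogs of the demethylases on the sex chromosomes differed between the week 70 libraries. Kdm5d and Uty, the Y-linked paralogs of Kdm5c and Kdm6a, had 366 and 252 counts in replicate 2 and 0 in replicate 1, while Xist, the RNA that silences an X chromosome, had 4 and 7969. The X-linked genes Kdm5c and Kdm6a, which escape that silencing, had 77.4 and 43 CPM in replicate 1 and 62.4 and 28.8 in replicate 2. In the 6 day 15 libraries Kdm5d had 0 or 1 counts, Uty was at 0 and Xist had 54531 to 93272 counts. Kdm5c had 210, 219 and 205 CPM in WT and 86.1, 85.3 and 80.9 in KO day 15, so that its groups did not overlap, as in most of the 50 members. Kdm6a had 77.6, 74.3 and 74.1 CPM in WT and 73.6, 83.5 and 89.9 in KO day 15, and its groups overlapped.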
